A study of Mus musculus with 8 samples.

Results

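The acute phase genes of the liver were examined in RNA-seq data from mice with a hepatic FOXO1 knockout and from wildtype controls, with 4 knockout libraries (numbered 3, 9, 10 and 11 in their titles) and 4 wildtype libraries (numbered 1, 3, 10 and 12). Neither the driver of the deletion nor the age, sex and strain of the mice is stated in the labels. They also do not say whether each library is a separate animal, and p-values here refer to the spread between libraries alone. The genes were chosen as a list of 33 known acute phase and inflammation genes, of which 32 were found by symbol among the 25690 genes of the table and 1, Cebpd, was not analysed here. Expression was measured in FPKM (fragments mapped to a gene, scaled by transcript length and library depth). A mean over the 8 libraries of 1 FPKM or more was reached by 31 of them, and Osmr stayed below it. Il1rn and Cd14 reached it through the knockout libraries, having wildtype means of 0.725 and 0.895 FPKM.

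The acute phase response is the change in the plasma proteins made by hepatocytes during infection or injury. Interleukin-6 and related cytokines act on it through STAT3, interleukin-1 acts through NF-kB, and C/EBP factors bind many of the responding promoters. In mice the serum amyloid A proteins and serum amyloid P are the strongly responding plasma proteins, whereas C-reactive protein, the classical human marker, responds weakly.

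Foxo1, the targeted gene, was at 0.224, 0.267, 0.375 and 0.212 FPKM in the knockout libraries, against 3.21, 3.01, 3.38 and 3.81 FPKM in the wildtype libraries. Every knockout library was below every wildtype library (log2 change -1.78, SE 0.09, limma adjusted p = 0.0000362). Depth, estimated from the FPKM value of a single fragment, was 30300000 to 35100000 fragments in the knockout libraries and 27000000 to 31700000 fragments in the wildtype libraries. Alb, the albumin gene that marks hepatocytes, was high in 7 libraries and listed at 0 in knockout 10, an exact 0 that may be a failed estimate.

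Most acute phase transcripts were above every wildtype library in knockouts 3 and 11, many of them far above, and most were closer to wildtype in knockouts 9 and 10. The 32 genes together made up 12.4, 1.10, 1.08 and 12% of the summed FPKM in knockouts 3, 9, 10 and 11, against 0.889, 0.859, 0.875 and 0.969% in wildtypes 1, 3, 10 and 12. At least 2-fold above the highest wildtype library were 24 of the 31 tested genes in knockout 3, 22 in knockout 11, 3 in knockout 9 and 0 in knockout 10. The same held for 1.76%, 1.23%, 0.956% and 0.585% of all 10250 tested genes in those libraries. Both of knockouts 3 and 11 were above the other 6 libraries for 27 of the 31, against 5.68% of all tested genes. Every knockout library was above every wildtype library for 7 of the 31, against 4.83% of all tested genes. Among these, Saa1, Lcn2 and Lrg1 were at 4.88, 5.23 and 2.38 times the wildtype mean in knockout 9 and at 2.26, 1.76 and 2.29 times in knockout 10. Knockouts 9 and 10 were both below every wildtype library for 1 of the 31, Orm3, against 21.2% of all tested genes. The list had been put together with the high values of knockouts 3 and 11 known, so these counts are a description. In bulk liver RNA a change in the number of cells of a type and a change in RNA per cell cannot be told apart.

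**Figure D1:**
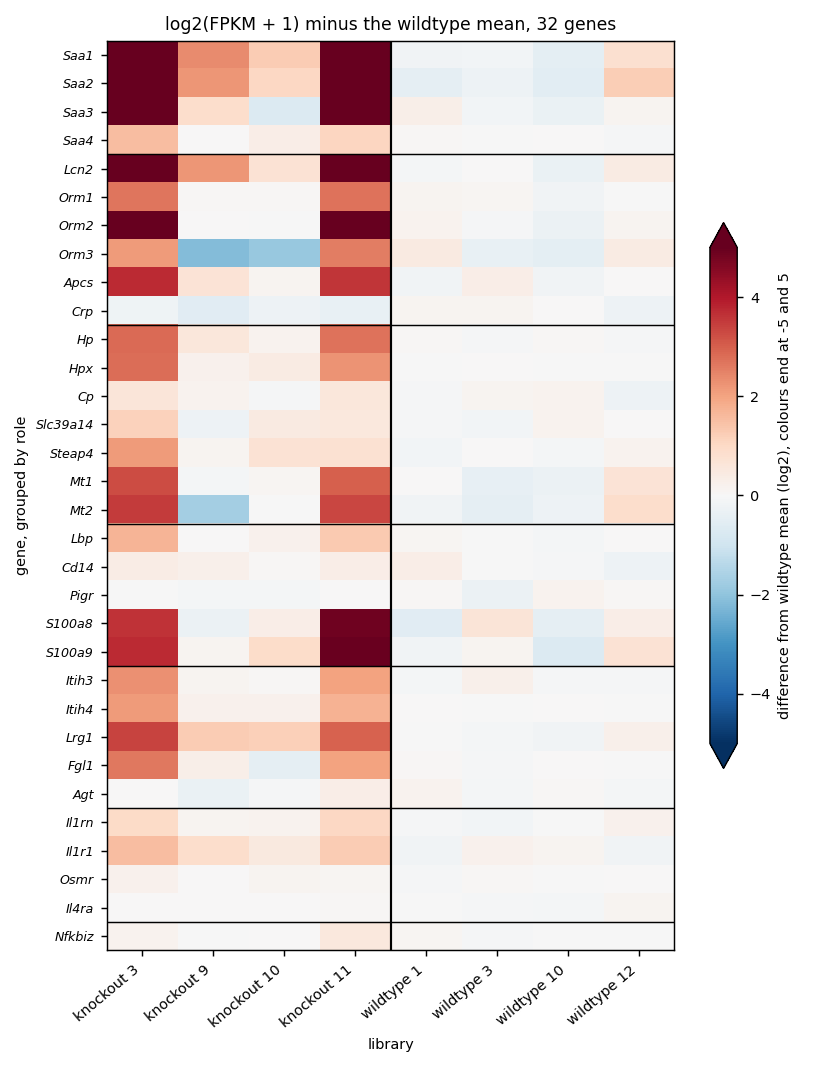
Difference of log2(FPKM + 1) from the wildtype mean for 32 acute phase genes (rows, grouped by role with lines between roles) in 4 knockout and 4 wildtype libraries (columns). Colours end at -5 and 5, which Saa1, Saa2, Saa3, Lcn2 and Orm2 exceed in knockouts 3 and 11. Columns of knockouts 3 and 11 are red for most genes, and those of knockouts 9 and 10 are pale apart from Saa1, Saa2, Lcn2, Lrg1, Orm3 and Mt2.

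Few of these genes passed the test of genotype, and the knockout libraries differed widely among themselves. In limma on log2(FPKM + 1) with Benjamini-Hochberg adjustment over all tested genes, 2 of 31 rose, Lrg1 and Il1r1, and 0 fell at an adjusted p under 0.05. Of all tested genes 2.7% rose and 11.7% fell. A count of 2 in 31 is too small for its share to be read against 2.7%. Scaling moved that split over all genes: 277 rose and 1195 fell as deposited, 485 and 720 after median-ratio scaling, 470 and 652 after quantile normalization, and 516 and 585 with a transcript length trend taken out, while 2 of the 31 rose under each. At an unadjusted p under 0.05 there were 17 of 31, against 30.5% of all tested genes. The median log2 change was 1.12 over the 31 genes and -0.076 over all tested genes, and 28 of the 31 values were above 0, against 37.7% of all.

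The number that rose changed when knockout 9 or knockout 10 was left out, and stayed at 2 without any other single library. Without knockout 9 the number that rose was 13 (3.54% of all tested genes rose), without knockout 10 it was 10 (2.69%), and with libraries weighted by how close they lay to their group it was 9 (3.91%). Among genes with a mean over the 8 libraries of at least 5 FPKM it was 4 (3.8%). Il1r1, among those 4, reached that mean through the knockout libraries, having a wildtype mean of 3.67 FPKM. Without knockouts 3 and 11 together, 2 of 29 tested genes rose, Lrg1 and Saa1 (1.88% of all tested genes), and 1 fell, Orm3 (6.35%). The median log2 change was then 0.091, against -0.012 over all tested genes. Knockouts 3 and 11 were left out because these genes were high in them, so the calls without them are a description.

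**Figure D2:**
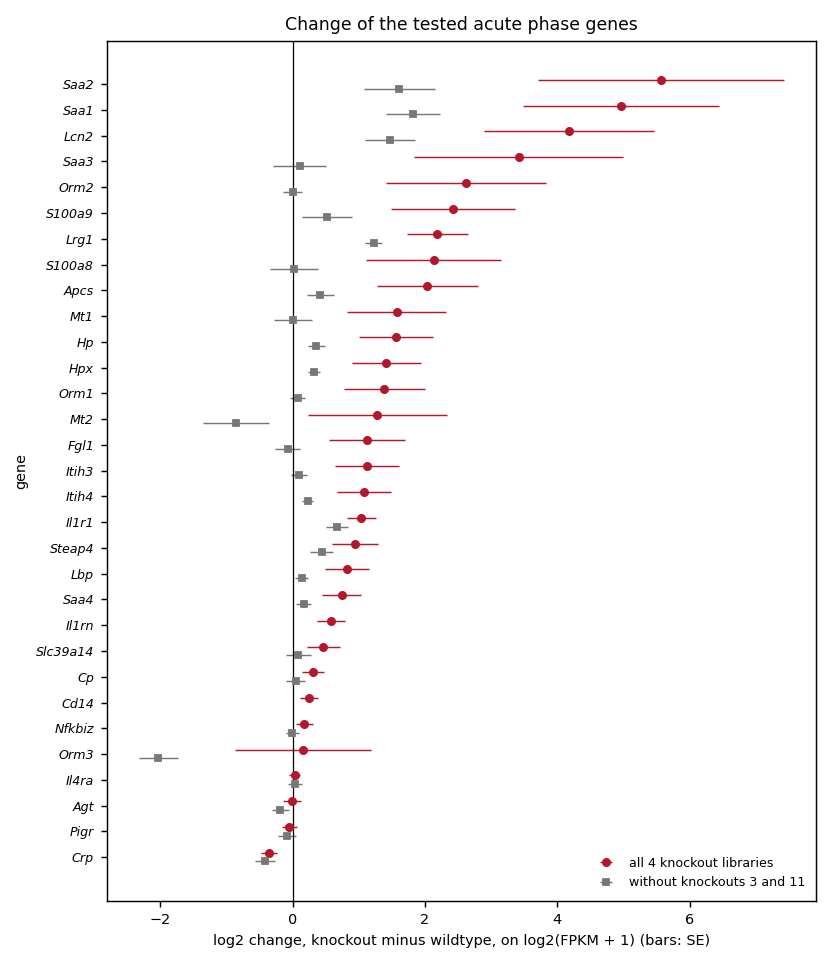
Log2 change on the log2(FPKM + 1) scale, knockout minus wildtype, with its SE for 31 acute phase genes, from all 8 libraries (red circles) and without knockouts 3 and 11 (grey squares). Saa2 and Saa1 have the largest changes, 5.57 and 4.96, with SEs of 1.86 and 1.48, whereas Lrg1 has 2.19 with an SE of 0.46. Il1rn and Cd14 have no grey square because their mean without those libraries is under 1 FPKM.

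The serum amyloid A genes encode apolipoproteins of high density lipoprotein, and they lie within one stretch of chromosome 7 (mm10, GENCODE M21). Saa1 (chr7:46740497-46742980, minus strand) was at 28413, 573, 266 and 33012 FPKM in the knockout libraries, against 97.3, 98.9, 78.3 and 195 FPKM in the wildtype libraries, with libraries in the order given above here and for each gene below. All 4 knockout libraries were above all 4 wildtype libraries, but knockouts 3 and 11 were at 242 and 281 times the wildtype mean, and knockouts 9 and 10 at 4.88 and 2.26 times. Saa1 did not pass with all libraries (log2 change 4.96, SE 1.48, limma adjusted p = 0.0528) and passed without knockouts 3 and 11, whose spread then no longer entered (1.81, SE 0.41, limma adjusted p = 0.0408). Over the alternatives its limma adjusted p lay between 0.0173 and 0.128, apart from 0.299 with the title number as a block.

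Saa2 (chr7:46751790-46754313, plus strand), a close copy of Saa1, was at 25344, 169, 74.1 and 29339 FPKM in the knockout libraries, against 26.1, 30.2, 24.4 and 86.5 FPKM in the wildtype libraries. Wildtype 12 was above knockout 10, so the groups overlapped, and Saa2 did not pass (log2 change 5.57, SE 1.86, limma adjusted p = 0.0771). Of the runs of 50 bases in the annotated Saa1 transcripts 31.1% also occur in those of Saa2, and of the Saa2 runs 29.97% occur in Saa1, so the split of reads between the genes is uncertain. The ratio of Saa1 to Saa2 was 1.12, 3.39, 3.59 and 1.13 in knockouts 3, 9, 10 and 11, against 3.73, 3.28, 3.21 and 2.26 in wildtypes 1, 3, 10 and 12. It was thus nearest to 1 where both genes were highest.

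Saa3 (chr7:46711998-46715700, minus strand), which in mice is also made outside hepatocytes, for example by macrophages and fat cells, was at 1701, 15.0, 4.34 and 489 FPKM in the knockout libraries, against 9.62, 6.92, 5.90 and 8.45 FPKM in the wildtype libraries. Knockout 3 was 3.48 times knockout 11, whereas Saa1 and Saa2 were slightly higher in knockout 11, and knockout 10 was below every wildtype library. Saa4 (chr7:46727998-46732603, minus strand), the constitutive member of the family, was at 335, 114, 143 and 239 FPKM in the knockout libraries, against 118, 113, 114 and 109 FPKM in the wildtype libraries. Its folds in knockouts 3 and 11 were 2.95 and 2.1, the smallest of the family. Neither passed (log2 changes 3.42, adjusted p = 0.178 for Saa3 and 0.74, adjusted p = 0.121 for Saa4 in limma).

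**Figure D3:**
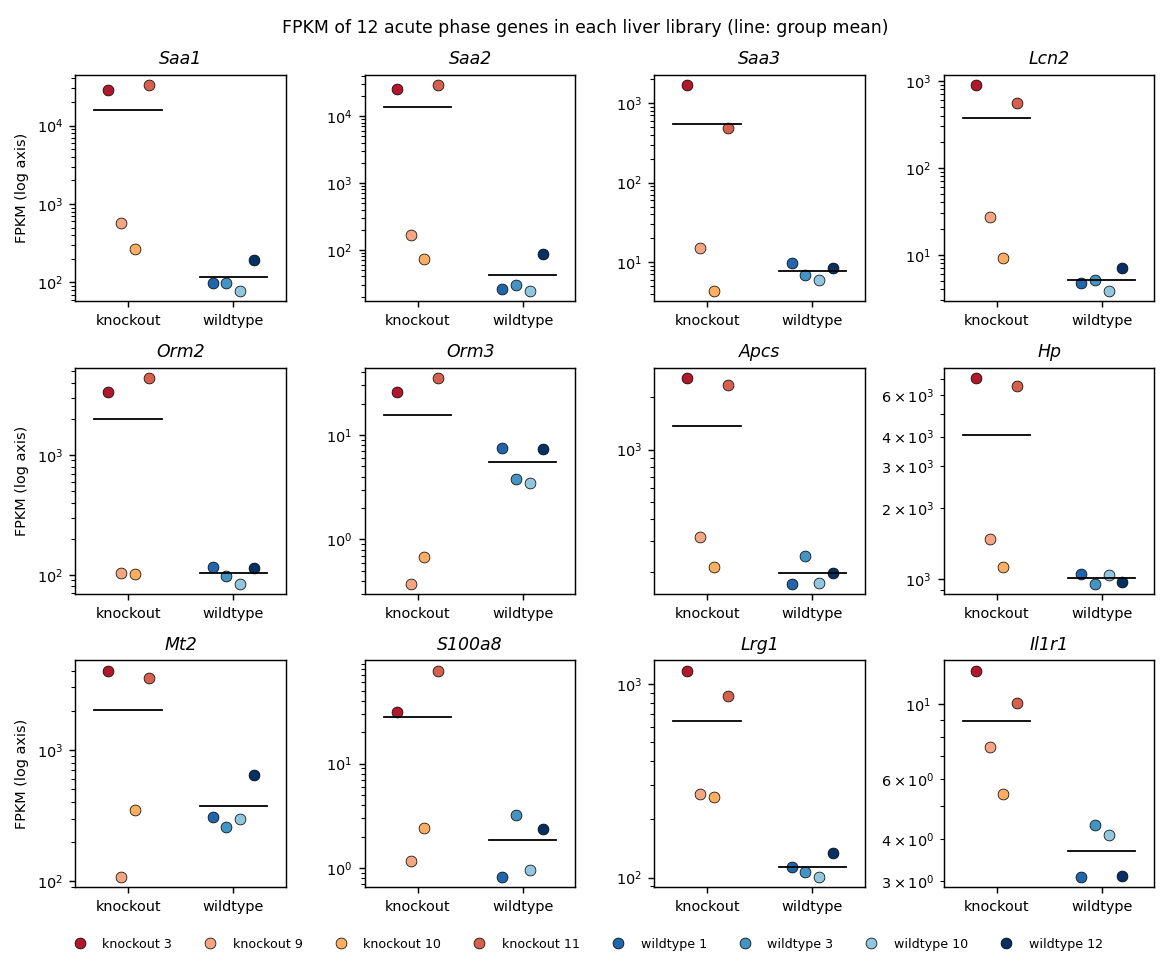
FPKM on a log axis of 12 acute phase genes in each knockout library (left, reds and oranges) and wildtype library (right, blues), with a line at each group mean. Knockouts 3 and 11 are above the other 6 libraries in each panel, and for Saa1, Lcn2, Hp, Lrg1 and Il1r1 knockouts 9 and 10 are also above every wildtype library, while for Orm3 they are below every wildtype library.

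Promoters were read from 250 bases before to 50 bases after the gene start, as given by RefSeq for GRCm38.p6, a patch release of the assembly called mm10. Some of them are shown here and below. Of the 32 genes 25 had an entry, with 29 windows. All 25 were searched, including genes that were not high in knockouts 3 and 11, such as Pigr and Il4ra. Both strands were searched for the core letters of a C/EBP site (TTGCNNAA), a STAT site (TTCNNNGAA), an NF-kB site (GGG, any 2 bases, then TTTCC), a FoxO site (GTAAACA) and a form of the metal response element (TGCGCNC), where N is any base. Other forms of the metal response element were not searched. At least 1 C/EBP match was found in 13 of the 25 genes and in 13 of their 29 windows, and 10.8% of all 32851 windows hold one. Near copies, such as the Saa1 and Saa2 windows, were counted separately. These genes were Cp, Hpx, Il1r1, Lcn2, Mt2, Orm2, Orm3, S100a9, Saa1, Saa2, Saa3, Saa4 and Steap4. STAT matches were in 5 of the 25 genes and 5 of the 29 windows (8.30% of all windows). NF-kB matches were in 3 genes and 4 windows (1.63%), and FoxO matches in 0 genes (3.65%). The searched form of the metal response element was found in 2 genes and 2 windows, those of Mt1 and Mt2 (15.4% of all windows). A match is a description of the letters in this window and no measurement of binding, and the absence of a match says only that these letters are not in this window. The serum amyloid promoters, with C/EBP matches in capitals (on the reverse strand in Saa3, 99 bases before the gene start), are these:
Saa1 (chr7:46742931-46743230, minus strand): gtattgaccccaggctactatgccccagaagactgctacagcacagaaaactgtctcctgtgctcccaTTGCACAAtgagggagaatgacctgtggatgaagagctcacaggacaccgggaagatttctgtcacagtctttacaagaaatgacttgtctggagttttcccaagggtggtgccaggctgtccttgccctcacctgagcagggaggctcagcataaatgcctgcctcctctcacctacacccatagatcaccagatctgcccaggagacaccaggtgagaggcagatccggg
Saa2 (chr7:46751583-46751882, plus strand): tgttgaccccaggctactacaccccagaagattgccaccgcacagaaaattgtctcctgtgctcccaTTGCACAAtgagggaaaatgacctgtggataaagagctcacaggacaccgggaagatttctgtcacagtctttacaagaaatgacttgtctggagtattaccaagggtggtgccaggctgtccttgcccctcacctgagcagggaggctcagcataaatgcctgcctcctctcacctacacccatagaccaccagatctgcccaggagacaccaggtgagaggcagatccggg
Saa3 (chr7:46715627-46715926, minus strand): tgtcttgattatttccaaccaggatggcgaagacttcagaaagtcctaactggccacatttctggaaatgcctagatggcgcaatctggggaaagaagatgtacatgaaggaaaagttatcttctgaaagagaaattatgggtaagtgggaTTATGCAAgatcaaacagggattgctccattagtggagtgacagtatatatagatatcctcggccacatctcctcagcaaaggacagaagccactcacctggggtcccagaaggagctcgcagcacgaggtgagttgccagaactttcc
The Saa1 and Saa2 windows were identical at 287 of 301 aligned positions, 95.3%, and hold the same match, TTGCACAA, starting 182 and 183 bases before the gene start. The Saa1 and Saa3 windows were identical at 49.4% of aligned positions.

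Among the lipocalins, small proteins that carry lipophilic molecules, Lcn2 (chr2:32384633-32388252, minus strand), which binds bacterial iron carriers, had the largest folds. Its values were 902, 27.0, 9.06 and 565 FPKM in the knockout libraries, against 4.73, 5.10, 3.84 and 6.96 FPKM in the wildtype libraries. Every knockout library was above every wildtype library, with folds of 175, 5.23, 1.76 and 109 over the wildtype mean in knockouts 3, 9, 10 and 11, and the change did not pass (log2 change 4.18, SE 1.28, limma adjusted p = 0.0580). The orosomucoid genes of chromosome 4 encode abundant plasma glycoproteins that bind drugs and lipids. Orm1 (chr4:63344560-63348163, plus strand) was at 8062, 1327, 1333 and 8334 FPKM in the knockout libraries, against 1384, 1345, 1104 and 1242 FPKM in the wildtype libraries. Orm2 (chr4:63362449-63365878, plus strand) was at 3362, 103, 101 and 4407 FPKM in the knockout libraries, against 116, 97.1, 84.1 and 113 FPKM in the wildtype libraries. In knockouts 9 and 10 both genes were at the wildtype level, with folds between 0.987 and 1.05.

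Orm3 (chr4:63356162-63359511, plus strand), the least abundant of the Orm genes, differed from its neighbours. It was at 26.0, 0.376, 0.682 and 35.4 FPKM in the knockout libraries, against 7.44, 3.76, 3.48 and 7.30 FPKM in the wildtype libraries. Knockouts 3 and 11 were above every wildtype library, and knockouts 9 and 10 were below every wildtype library, at 0.0683 and 0.124 times the wildtype mean. With all libraries it did not pass (log2 change 0.15, SE 1.03, limma adjusted p = 0.941). Without knockouts 3 and 11 the change was -2.03 (SE 0.29, limma adjusted p = 0.0141). Those were its highest libraries and were left out for their high values, so this value describes knockouts 9 and 10 only. Orm3 was the only one of the 31 tested genes with both of knockouts 9 and 10 below every wildtype library, against 21.2% of all tested genes. Of the 50-base runs of Orm1 20.4% occur in Orm2, whereas 3.59% of those of Orm3 occur in Orm2 and 2.21% in Orm1. The Orm2 promoter holds the C/EBP match TTGCGCAA, in capitals, 120 bases before the gene start, and the Orm3 window, identical to it at 86.2% of aligned positions, holds TTGCACAA 121 bases before.
Orm2 (chr4:63362199-63362498, plus strand): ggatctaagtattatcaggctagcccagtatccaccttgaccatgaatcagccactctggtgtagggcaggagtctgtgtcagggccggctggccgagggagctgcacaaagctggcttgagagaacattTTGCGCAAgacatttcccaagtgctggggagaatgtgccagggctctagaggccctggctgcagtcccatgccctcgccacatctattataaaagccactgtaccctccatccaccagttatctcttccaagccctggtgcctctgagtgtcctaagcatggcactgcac

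The pentraxins, ring-shaped proteins that bind microbes and dying cells, behaved differently from each other. Apcs, the gene of serum amyloid P, was at 2572, 317, 212 and 2340.4 FPKM in the knockout libraries, against 171, 247, 172 and 196 FPKM in the wildtype libraries. Knockouts 3 and 11 were 13.1 and 11.9 times the wildtype mean, knockout 10 lay within the wildtype range, and Apcs did not pass (log2 change 2.03, SE 0.76, limma adjusted p = 0.107). Crp, the gene of C-reactive protein and a neighbour of Apcs on chromosome 1, lay at 154 to 196 FPKM in the knockout and 190.5 to 255 FPKM in the wildtype libraries. It was lower in the knockout mean, did not pass (log2 change -0.36, SE 0.12, limma adjusted p = 0.0808) and was under the wildtype mean in all 4 knockout libraries, knockouts 3 and 11 included. It passed as lower once wildtype 12 was left out (limma adjusted p = 0.0436) or libraries were weighted (0.0489).

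Several of the genes handle haem and metals. Hp encodes haptoglobin, which binds free haemoglobin, and was at 7096, 1479.6, 1122 and 6575 FPKM in the knockout libraries, against 1053, 953, 1043 and 974 FPKM in the wildtype libraries. Hpx encodes hemopexin, which binds free haem, and was at 11833, 2009, 2259 and 8113 FPKM in the knockout libraries, against 1701, 1746, 1688 and 1706 FPKM in the wildtype libraries. For both genes all knockout libraries were above all wildtype libraries, as they were for 7 of the 31 tested genes and 4.83% of all tested genes. The other 5 were Saa1, Lcn2, Itih4, Lrg1 and Il1r1. Neither Hp (log2 change 1.56, SE 0.56, limma adjusted p = 0.0975) nor Hpx (log2 change 1.42, SE 0.52, limma adjusted p = 0.102) passed. The wildtype libraries of Hpx spanned a ratio of 1.03 from lowest to highest and the knockout libraries a ratio of 5.89.

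The metallothionein genes Mt1 and Mt2, neighbours on chromosome 8 whose products bind zinc and copper, respond to metals and glucocorticoids as well as to cytokines. Mt1 was at 5968, 573, 667 and 4944 FPKM in the knockout libraries, against 619, 469, 497 and 1002 FPKM in the wildtype libraries. Mt2 was at 4017, 108, 346 and 3529 FPKM in the knockout libraries, against 309, 257, 298 and 645 FPKM in the wildtype libraries. Wildtype 12 was the highest wildtype library for both, as it was for Saa1 and Saa2, and knockout 9 had low Mt2, at 0.286 times the wildtype mean, with Mt1 at 0.886 times. The ratio of Mt1 to Mt2 was 1.49, 5.31, 1.93 and 1.40 in knockouts 3, 9, 10 and 11, against 2.0, 1.83, 1.67 and 1.55 in wildtypes 1, 3, 10 and 12. Of the 50-base runs of Mt2 45.8% also occur in transcripts of Gm45774, which was not analysed here, so reads of these 2 genes may be hard to separate. Neither metallothionein gene passed (log2 changes 1.57, adjusted p = 0.196 for Mt1 and 1.28, adjusted p = 0.458 for Mt2 in limma).

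Steap4, a metalloreductase gene, was at 68.1, 16.4, 25.1 and 25.4 FPKM in the knockout libraries, against 13.4, 15.1, 13.7 and 17 FPKM in the wildtype libraries. Here knockout 3 stood alone, at 2.69 times knockout 11, while knockouts 10 and 11 were alike and knockout 9 lay within the wildtype range, and the change did not pass (log2 change 0.94, SE 0.35, limma adjusted p = 0.105). The Steap4 window was the only one of the 29 that held a match to each of the C/EBP, STAT and NF-kB letters, shown in capitals: an NF-kB match on the reverse strand 226 bases before the gene start, a STAT match 116 bases before and a C/EBP match 87 bases before.
Steap4 (chr5:7960222-7960521, plus strand): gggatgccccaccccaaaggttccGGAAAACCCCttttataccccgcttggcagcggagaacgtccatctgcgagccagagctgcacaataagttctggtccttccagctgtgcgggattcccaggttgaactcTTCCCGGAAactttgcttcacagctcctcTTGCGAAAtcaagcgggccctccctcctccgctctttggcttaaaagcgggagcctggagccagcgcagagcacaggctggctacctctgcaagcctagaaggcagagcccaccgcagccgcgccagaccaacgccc
Slc39a14, which encodes the zinc and iron importer ZIP14, lay at 24.1 to 66.0 FPKM in the knockout and 26.8 to 32.9 FPKM in the wildtype libraries, highest in knockout 3 and lowest in knockout 9. Cp, the gene of the copper-carrying ferroxidase ceruloplasmin, lay at 363 to 571 FPKM in the knockout and 320.3 to 425 FPKM in the wildtype libraries, and knockouts 9 and 10 were close to the wildtype range. Neither passed (log2 changes 0.46, adjusted p = 0.240 for Slc39a14 and 0.31, adjusted p = 0.246 for Cp in limma).

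The genes of microbial sensing and mucosal defence were mixed. Lbp, whose product carries bacterial lipopolysaccharide, was at 128, 39.4, 45.2 and 96.9 FPKM in the knockout libraries, against 41.1, 37.9, 35.6 and 39.5 FPKM in the wildtype libraries, with knockouts 3 and 11 apart from the other 6 libraries (log2 change 0.82, SE 0.33, limma adjusted p = 0.133). Cd14, the lipopolysaccharide co-receptor of macrophages, lay at 0.925 to 1.40 FPKM in the knockout and 0.551 to 1.36 FPKM in the wildtype libraries (log2 change 0.25, SE 0.14, limma adjusted p = 0.255). Pigr, the receptor that carries immunoglobulin A across epithelia, lay at 249 to 266 FPKM in the knockout and 217 to 296 FPKM in the wildtype libraries. No knockout library of Pigr was outside the wildtype range, and the sign of its log2 change of -0.049 turned with the scaling. None of these 3 genes passed.

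S100a8 and S100a9 encode the subunits of calprotectin, which fills the cytoplasm of neutrophils. S100a8 was at 31.4, 1.16, 2.40 and 77.2 FPKM in the knockout libraries, against 0.825, 3.19, 0.960 and 2.38 FPKM in the wildtype libraries. S100a9 was at 24.3, 1.10, 2.63 and 57.5 FPKM in the knockout libraries, against 0.701, 1.13, 0.192 and 2.16 FPKM in the wildtype libraries. Both were more than 2 times as high in knockout 11 as in knockout 3, with ratios of knockout 3 to knockout 11 of 0.406 and 0.422. Neither passed (log2 changes 2.13, adjusted p = 0.198 for S100a8 and 2.42, adjusted p = 0.118 for S100a9 in limma).

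All 12 neutrophil markers, S100a8 and S100a9 included, summed to 3.34 to 157 FPKM in the knockout and 1.89 to 5.65 FPKM in the wildtype libraries. The summed FPKM of the other 10 neutrophil markers was 8.36, 1.08, 1.59 and 22.4 in knockouts 3, 9, 10 and 11, against 0.977, 0.720, 0.739 and 1.10 in wildtypes 1, 3, 10 and 12. All 10 were above 0 in knockouts 3 and 11, whereas 4 and 1 were at 0 in knockouts 9 and 10 and 5 to 7 in the wildtype libraries. Each of the 10 was highest in knockout 11, and 8 were next highest in knockout 3. The other 2 were Elane, at 0.234 FPKM in knockout 3 and up to 0.298 FPKM in the wildtype libraries, and Cxcr2, at 0.332 FPKM in knockout 3 and up to 0.352 FPKM in the wildtype libraries. Ly6g, which defines mouse neutrophils, had 0.218 FPKM in knockout 3 and 0.613 FPKM in knockout 11 and was at 0 in the other 6 libraries. Retnlg was at 4.03, 0.0765, 0.208 and 11.1 FPKM in the knockout libraries, against 0, 0, 0 and 0.232 FPKM in the wildtype libraries. Ngp, a granule protein gene, reached 1.35 FPKM in knockout 3 and 3.78 FPKM in knockout 11, and Camp 0.569 and 2.61 FPKM.

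The summed markers of other cell types overlapped between the groups. The 11 Kupffer cell and macrophage markers summed to 88.0, 115, 133 and 102 FPKM in the knockout libraries, against 129, 125, 96.8 and 111 FPKM in the wildtype libraries, with 0 of them at 0. Monocyte markers summed to 15.7 to 21.9 and 16.2 to 21.8 FPKM in knockout and wildtype libraries, and lymphocyte markers to 1.71 to 2.42 and 0.960 to 1.85 FPKM. Knockouts 3 and 11 were within or below the wildtype range for Kupffer cell and monocyte markers, apart from monocyte markers in knockout 11, which were slightly above it. The monocyte sum was mostly Lyz2, at 14.6 to 20.7 FPKM in the knockout and 15.6 to 21.1 FPKM in the wildtype libraries. Ly6c2, another monocyte marker, was at 0.755, 0.490, 0.657 and 1.30 FPKM in the knockout libraries, against 0.541, 0.379, 0.348 and 0.560 FPKM in the wildtype libraries, with knockouts 3, 10 and 11 above every wildtype library. The part of neutrophil or monocyte RNA in the values of S100a8, S100a9 and Lcn2, which neutrophils also express, was not tested.

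**Figure D4:**
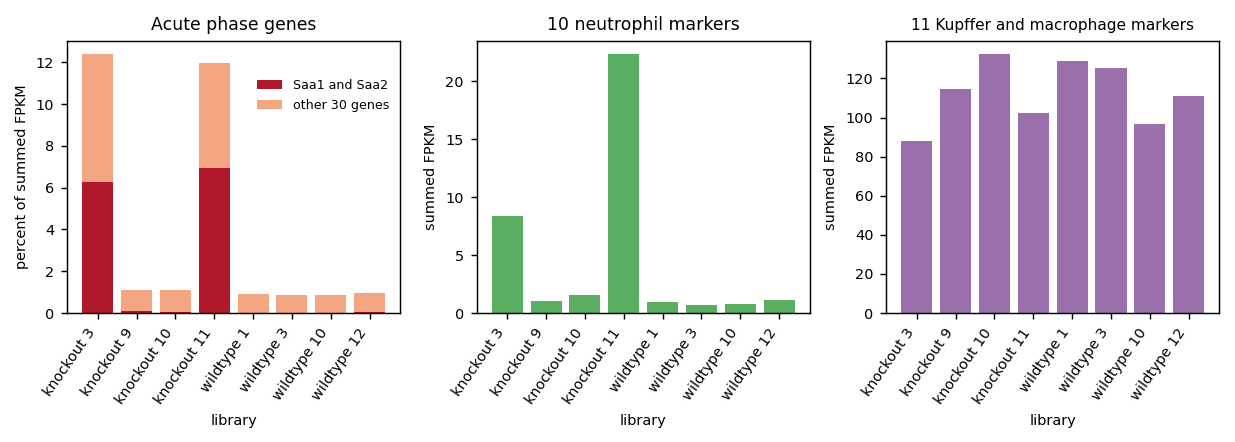
Left, percent of the summed FPKM of each library taken by Saa1 and Saa2 (dark) and by the other 30 acute phase genes (light), with knockout libraries left of wildtype libraries. Middle and right, summed FPKM of 10 neutrophil markers other than S100a8 and S100a9 and of 11 Kupffer cell and macrophage markers. Knockout 3 has the higher acute phase share, 12.4%, and knockout 11 the higher neutrophil sum, 22.4 FPKM, while the macrophage sums of both groups overlap.

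Of the remaining secreted proteins, Lrg1 showed the clearest difference between genotypes. Lrg1 (chr17:56119678-56122001, minus strand) encodes a leucine-rich glycoprotein that modulates TGF-beta signalling in vessels. It was at 1171, 271, 261 and 872 FPKM in the knockout libraries, against 113, 107, 101 and 134 FPKM in the wildtype libraries. All 4 knockout libraries were above all wildtype libraries, and knockouts 9 and 10 were still at 2.38 and 2.29 times the wildtype mean. Its mean was 644 ± 453 FPKM in the knockout and 114 ± 14.5 FPKM in the wildtype libraries (SD, n = 4 each). Lrg1 rose with all libraries (log2 change 2.19, SE 0.46, limma adjusted p = 0.0147) and without knockouts 3 and 11 (1.22, SE 0.13, limma adjusted p = 0.00968). Leaving out any single library kept its log2 change between 1.79 and 2.51 and its adjusted p at or under 0.0434. Its promoter window held no match to any motif searched and is shown without capitals because Lrg1 rose both with and without knockouts 3 and 11.
Lrg1 (chr17:56121897-56122196, minus strand): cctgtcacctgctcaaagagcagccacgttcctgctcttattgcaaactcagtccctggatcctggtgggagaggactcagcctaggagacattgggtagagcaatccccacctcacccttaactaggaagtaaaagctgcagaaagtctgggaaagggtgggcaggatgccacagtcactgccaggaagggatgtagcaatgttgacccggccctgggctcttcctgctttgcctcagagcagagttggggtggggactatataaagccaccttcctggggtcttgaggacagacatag

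The inter-alpha-trypsin inhibitor heavy chain genes Itih3 and Itih4 are neighbours on chromosome 14, and their products bind hyaluronan of the matrix or circulate in plasma. Itih3 was at 1035, 228, 219 and 848 FPKM in the knockout libraries, against 196, 247, 199.99 and 200.3 FPKM in the wildtype libraries. Itih4 was at 1428, 381, 375 and 1088 FPKM in the knockout libraries, against 325, 317, 331 and 321 FPKM in the wildtype libraries. For Itih4 all knockout libraries were above all wildtype libraries, by little in knockouts 9 and 10 (1.18 and 1.16 times the wildtype mean), and for Itih3 wildtype 3 was above knockouts 9 and 10. Neither passed (log2 changes 1.12, adjusted p = 0.155 for Itih3 and 1.08, adjusted p = 0.109 for Itih4 in limma).

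Fgl1, a fibrinogen-like protein that hepatocytes secrete, was at 1528, 301, 180.5 and 1002 FPKM in the knockout libraries, against 256, 237, 249 and 242 FPKM in the wildtype libraries. Knockout 10 was below every wildtype library, so the 4 knockout libraries lay on both sides of wildtype, and the change did not pass (log2 change 1.12, SE 0.58, limma adjusted p = 0.227). Agt, the gene of angiotensinogen, the precursor of the angiotensins, lay at 153 to 238 FPKM in the knockout and 177 to 215 FPKM in the wildtype libraries. Its highest library was knockout 11 and its lowest knockout 9, and the mean change was -0.013 on the log2 scale (limma adjusted p = 0.964), with a sign that turned with the scaling.

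The receptors gave the other gene that passed. Il1r1 (chr1:40225080-40317257, plus strand), the signalling receptor of interleukin-1, was at 12.5, 7.49, 5.42 and 10.1 FPKM in the knockout libraries, against 3.09, 4.40, 4.10 and 3.10 FPKM in the wildtype libraries. Its knockout libraries were all above its wildtype libraries, at 3.41, 2.04, 1.47 and 2.74 times the wildtype mean in knockouts 3, 9, 10 and 11, and the gene rose (log2 change 1.04, SE 0.22, limma adjusted p = 0.0144). Its mean was 8.88 ± 3.10 FPKM in the knockout and 3.67 ± 0.678 FPKM in the wildtype libraries (SD, n = 4 each). Without knockouts 3 and 11 it did not pass (0.67, SE 0.17, limma adjusted p = 0.0554). Il1rn, the antagonist that competes for the same receptor, lay at 0.875 to 2.55 FPKM in the knockout and 0.580 to 0.993 FPKM in the wildtype libraries, with knockouts 3 and 11 the highest (log2 change 0.58, SE 0.22, limma adjusted p = 0.109).

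Osmr, the receptor chain for oncostatin M, lay at 0.178 to 0.336 FPKM in the knockout and 0.109 to 0.208 FPKM in the wildtype libraries and was too low to be tested. Il4ra, the receptor chain for interleukin-4, varied little over the 8 libraries, at 3.38 to 3.52 FPKM in the knockout and 3.09 to 3.78 FPKM in the wildtype libraries (log2 change 0.033, SE 0.08 in limma, not passing). Nfkbiz, an inducible regulator that works with NF-kB in the nucleus, lay at 2.85 to 4.65 FPKM in the knockout and 2.79 to 3.24 FPKM in the wildtype libraries, highest in knockout 11 (log2 change 0.17, SE 0.13, limma adjusted p = 0.402).

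Genes of the pathway outside these 33 were read from 3 further lists. Of 43 cytokine signalling genes, from receptors to NF-kB and STAT subunits, 32 were tested and 0 passed in either direction, with 6 at an unadjusted p under 0.05, where 30.5% of all tested genes were. Their median log2 change was 0.071, against -0.076 over all tested genes. Stat3, the transcription factor that interleukin-6 activates and that is itself induced in the response, was at 28.8, 15.6, 15.8 and 17.9 FPKM in the knockout libraries, against 11.6, 12.8, 10.9 and 18.5 FPKM in the wildtype libraries, with knockout 3 highest and wildtype 12 above knockout 11 (log2 change 0.49, SE 0.21, limma adjusted p = 0.155). Il1b, the interleukin-1 beta gene, was at 0.790, 0.715, 0.505 and 0.435 FPKM in the knockout libraries, against 2.09, 1.74, 2.19 and 0.549 FPKM in the wildtype libraries, and wildtype 12 was as low as the knockout libraries (log2 change -0.66, SE 0.22, limma adjusted p = 0.0699).

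Other signalling genes with the smallest adjusted p did not pass in limma either. Those with higher knockout means were the kinase genes Irak4 (log2 change 0.24, adjusted p = 0.163), Pim1 (0.60, adjusted p = 0.226) and Map3k7 (0.22, adjusted p = 0.231). Those with lower knockout means were Nfkbia, which encodes the inhibitor of NF-kB (log2 change -0.69, adjusted p = 0.0846), Il1rap, the partner chain of Il1r1 (-0.28, adjusted p = 0.112), and the AP-1 gene Junb (-0.74, adjusted p = 0.142). The cytokine genes Il6, Osm and Tnf were each at or under 0.10 FPKM in every library.

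Negative acute phase genes, whose plasma proteins fall in inflammation, did not move as a block. Of 13 tested 1 fell and 0 rose, where 11.7% and 2.7% of all tested genes did. The median log2 change was -0.049, against -0.076 over all tested genes. Rbp4, the retinol carrier, was at 2334, 2882, 2970.5 and 2828 FPKM in the knockout libraries, against 4058, 3778, 4352 and 3589.5 FPKM in the wildtype libraries, and every knockout library was below every wildtype library (log2 change -0.52, SE 0.12, limma adjusted p = 0.0218). It did not pass without knockouts 3 and 11 (-0.43, SE 0.11, limma adjusted p = 0.0540), without wildtype 1 (limma adjusted p = 0.0730), wildtype 3 (0.0501), wildtype 10 (0.0720), with no filter on low values (0.0703), with median-ratio scaling (0.0581), or when a trend with transcript length was taken out (-0.26, limma adjusted p = 0.143). Lower knockout means that did not pass in limma were those of Serpina6, the corticosteroid carrier (log2 change -0.56, adjusted p = 0.0978), of Ttr, the thyroxine carrier (-0.52, adjusted p = 0.107), and of the coagulation factor gene F12 (-0.18, adjusted p = 0.300).

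Higher knockout means that did not pass in limma were those of Trf, the iron carrier transferrin (log2 change 0.54, adjusted p = 0.0655), Fetub (0.35, adjusted p = 0.133), Igfals (0.37, adjusted p = 0.141) and Ahsg (0.31, adjusted p = 0.256). Trf was at 12922, 7590.1, 11122 and 11780.3 FPKM in the knockout libraries, against 7267, 7799.7, 7408 and 6793 FPKM in the wildtype libraries. Knockouts 3, 10 and 11 were above every wildtype library and knockout 9 was within the wildtype range.

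Among 10 tested acute phase plasma protein genes outside the 33, 4 rose and 0 fell, where 2.7% and 11.7% of all tested genes did, and the median log2 change was 0.72. The number that rose lay between 0 and 6 over the alternatives. This list too was chosen with earlier results of these data known, so its counts are a description. The 4 were Vtn, which encodes vitronectin (log2 change 0.64, adjusted p = 0.0172 in limma), the complement genes C3 (0.82, adjusted p = 0.0234) and C4b (0.77, adjusted p = 0.0416), and the fibrinogen gene Fga (0.97, adjusted p = 0.0492). Vtn was at 1772, 1186, 1238 and 1613 FPKM in the knockout libraries, against 943, 905, 935 and 886 FPKM in the wildtype libraries, a narrower range than any of the serum amyloid genes showed. In C3, C4b and Fga knockout 3 was also highest and knockout 11 next. Fga was at 4177, 1459, 1713 and 2338 FPKM in the knockout libraries, against 1036, 1084, 1176 and 1241 FPKM in the wildtype libraries. Without wildtype 1 or 12 Vtn did not pass (limma adjusted p = 0.0507 and 0.0508), and C4b did not pass without knockouts 3 and 11 (0.39, SE 0.15, limma adjusted p = 0.144). C3, C4b and Fga did not pass when any of 5 single libraries each was left out, with limma adjusted p up to 0.0638, 0.105 and 0.118. With no filter on low values none of those 3 passed (limma adjusted p = 0.0624 for C3, 0.0940 for C4b and 0.116 for Fga). With the length trend taken out C4b (0.0685) and Fga (0.0598) did not pass in limma, and Fga also did not with a pseudocount of 5 (0.0501), a robust variance model (0.0507) or median-ratio scaling (0.0589).

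Serpina3n, a protease inhibitor gene with similar copies, was at 657, 113, 129.6 and 445 FPKM in the knockout libraries, against 137, 112, 128 and 132 FPKM in the wildtype libraries, and A2m had 5.65 FPKM in knockout 3, 1.01 FPKM in knockout 11 and at most 0.135 FPKM elsewhere.

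**Figure D5:**
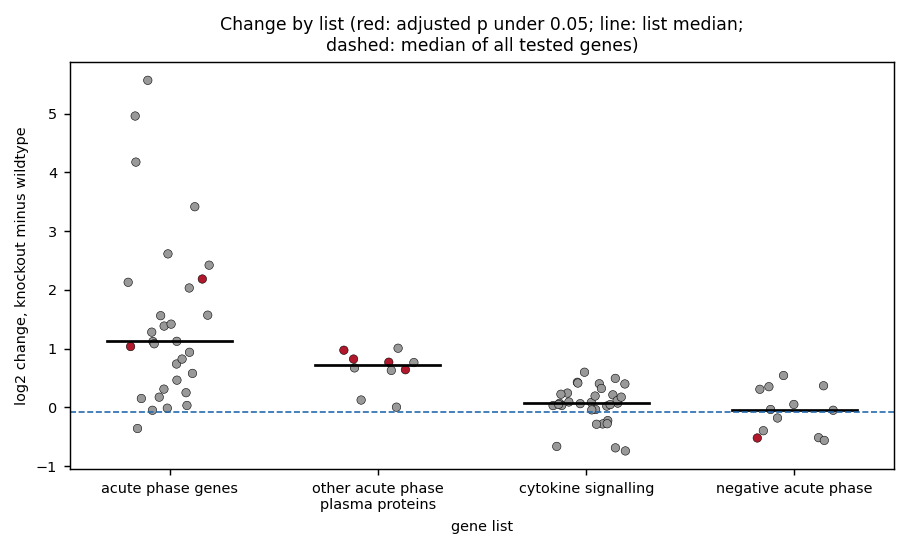
Log2 change on the log2(FPKM + 1) scale, knockout minus wildtype, of each tested gene in 4 lists (points, red where a gene passed), with each list's median as a line and the median of all tested genes dashed. Acute phase genes reach 5.57 with 2 red points, the other acute phase plasma proteins lie between 0 and 1.01 with 4 red points, and the signalling and negative acute phase lists lie on both sides of 0. Alb, listed at 0 in knockout 10, is not drawn.

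Of the 7 hepatocyte markers 1 rose, where 2.7% of all tested genes did: Hnf4a, which encodes a hepatocyte transcription factor (log2 change 0.43, SE 0.12, limma adjusted p = 0.0494). It was at 95.8, 92.1, 69.7 and 93.7 FPKM in the knockout libraries, against 67.6, 55.7, 70.5 and 65.3 FPKM in the wildtype libraries. Knockout 10 lay within the wildtype range, and Hnf4a did not pass without knockouts 3 and 11 (0.31, SE 0.14, limma adjusted p = 0.228) or when any single library but knockout 10 was left out (adjusted p up to 0.121). It also did not pass in limma with a pseudocount of 0.1 (adjusted p = 0.0507), with no filter (0.0857), with the length trend taken out (0.0549) or with library weights (0.0681).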

How the data were processed

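Liver RNA was isolated with Trizol and columns after DNase digestion, per the labels' protocols. The submitters' processing notes list TopHat2 2.1.0, HTSeq, Cufflinks 2.2.1 and mm10, with no roles. The authors deposited FPKM values, a unit read from the values and the tools, and no count test was run on them. Annotation, strand setting and the counting of shared reads are not stated there, so overlapping and similar genes may be mixed.

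Names and mm10 coordinates came from GENCODE M21 (24807 of 25690 IDs named), and promoters from RefSeq (GRCm38.p6). The 10250 genes whose mean reached 1 FPKM were fitted as log2(FPKM + 1) with limma 3.58.1 in R 4.3.3, genotype as the single term, a mean-variance trend and two-sided tests. A change on this scale understates low genes. Depth came from genes with 1 annotated transcript over 1500 bases, whose lowest values cluster at 1 fragment. The fit was checked on simulated data.

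The members and lists were chosen with earlier results of these data known. Values per library are given for members that passed, whose groups did not overlap or whose highest knockout library was at least 4 times the highest wildtype library, and for some others. From the other lists, genes that passed, up to 4 per direction with the smallest adjusted p and those past that 4-fold ratio are named, and cell type markers are given as sums. Ly6g, Elane, Cxcr2, Lyz2, Ly6c2, Il6ra, Socs3, Il6, Osm, Tnf and Alb were chosen once their values were known. The 20 alternatives were pseudocounts of 0.1 and 5, other filters, scalings, variance models, library weights, the title number as a block, and left-out libraries.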

Additional observations from a re-analysis of the deposited data

Results flagged for a closer look

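Among 4 libraries of a group, a library was singled out where its gap to the nearest other, on the log2(FPKM + 1) scale, exceeded the 95% critical value of Dixon's test as a share of the group's range, which chance alone gives for about 1 in 20 groups. Of 118 groups examined 8 had such a library. Saa2 was high in wildtype 12, at 86.5 FPKM where the other wildtype libraries had 24.4 to 30.2 FPKM (gap 0.834 of the range). Itih3 was high in wildtype 3, at 247 FPKM against 196 to 200.3 FPKM in its group's other libraries (0.912). Ttr was low in wildtype 10, at 5379 FPKM against 6506 to 6619 FPKM (0.917). C3 was low in wildtype 3, at 1131 FPKM against 1328 to 1357 FPKM (0.883). Hnf4a was low in knockout 10, at 69.7 FPKM against 92.1 to 95.8 FPKM in the other knockout libraries (0.875). Retnlg, Ngp and Camp were each above 0 in 1 wildtype library only, at 0.232 FPKM in wildtype 12, 0.0342 FPKM in wildtype 3 and 0.0739 FPKM in wildtype 10 (each 1.0 of the range). With every other wildtype library at 0 that share is 1.0 whatever the value, so the rate of 1 in 20 does not apply to these genes.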

How the results depend on the processing

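Over 20 alternatives, 25 of 31 tested members kept the sign of their change. The number of members that rose, 2, was 4 with a mean of at least 5 FPKM, 9 with library weights, 0 with the replicate block and 2 to 13 without single libraries. The number that fell, 0, was 1 with library weights, 1 without knockouts 3 and 11 together and 0 to 1 without single libraries. The median member change of 1.12 was 0.091 without knockouts 3 and 11 together. The numbers 3 and 10 are shared by a knockout and a wildtype title. The libraries' deviations from their group means correlated at only -0.0079 and 0.022 across genes, so nothing shows that they pair. With that replicate block 1 gene rose and 1 fell in all, and 0 members passed. Only the libraries numbered 3 and 10 inform the genotype change in that fit. Foxo1, the targeted gene, did not pass there either (limma adjusted p = 0.175), so the block cannot decide whether a member passes.

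Signalling genes that rose, 0, were 1 with the transcript length trend removed and 0 to 1 without single libraries. Those that fell, 0, were 2 with library weights and 0 to 1 without single libraries. Negative acute phase genes that rose, 0, were 1 with a mean of at least 5 FPKM, 2 with quantile normalization, 1 with library weights and 0 to 2 without single libraries. Those that fell, 1, were 0 with no filter, median-ratio scaling, the length trend removed, the replicate block or without knockouts 3 and 11, and 0 to 2 without single libraries. Other acute phase plasma protein genes that rose, 4, were 1 with no filter, 6 with quantile normalization or library weights, 0 with the replicate block and 0 to 6 without single libraries.

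Log2 changes of some named genes turned sign. Orm3 (0.15) was -0.29 with a pseudocount of 0.1, -2.03 without knockouts 3 and 11 together and -0.65 to 0.93 without single libraries. Pigr (-0.049) was 0.060 with median-ratio scaling, 0.21 with quantile normalization, 0.0012 with the length trend removed, 0.000228 with the replicate block and -0.14 to 0.0057 without single libraries. Agt (-0.013) was 0.095, 0.24, 0.12 and 0.00272 under those same settings and -0.12 to 0.088 without single libraries. F12 (-0.18) was 0.072 with quantile normalization. Without knockouts 3 and 11 together, Mt2 (1.28) was -0.86, Fgl1 (1.12) -0.077, Nfkbiz (0.17) -0.0092, Serpina3n (1.01) -0.068 and Il6ra (0.40) -0.34. Causes of these reversals were not tested. With 4 libraries per group and an unknown fragment count per gene, genes under 1 FPKM were not tested.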
